A study of Homo sapiens with 7 samples.

Results

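Cyclin-dependent kinase (CDK) inhibitor genes encode the small proteins that hold cyclin and CDK complexes in check. All 7 genes of the 2 human families, chosen by name, were read from a table of 19978 genes, and all 7 passed the expression filter. The families are CIP/KIP (CDKN1A, CDKN1B and CDKN1C) and INK4 (CDKN2A, CDKN2B, CDKN2C and CDKN2D). The samples came from HEK-293, an established human embryonic kidney line, which carries the adenovirus E1A and E1B genes. E1A protein binds the retinoblastoma protein, so the line is a limited model for the pathway described here.

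RNA was sequenced after 48 h in 3 conditions. Control cells (n = 2) were kept in DMEM of pH 7.4 with DMSO. Acidosis cells (n = 3) were kept in the same medium acidified to pH 6.6, also with DMSO. SRPIN340 cells (n = 2) received 10 µM of this SR protein kinase inhibitor at pH 7.4, with DMSO as its vehicle. Each sample is a biological repeat. The libraries held 13615816 to 24110460 estimated counts, and all 3 acidosis libraries were below the others. The 100 genes with the most counts took 24.06% to 24.81% of the counts in acidosis and 15.15% to 15.37% in the other samples. All 7 HEK-293 and kidney progenitor markers exceeded 1 CPM in every group, although PAX2 was only at 1.82 ± 0.646 CPM (SD, n = 3) in acidosis. Of 14 markers of blood, liver, fibroblast, endothelial and other epithelial cells, 5 had 3 counts or fewer in every sample. EPCAM, COL1A1 and LUM exceeded 1 CPM in each group and LYZ in acidosis. Of the 14 markers 6 were tested, and 4 were called higher in acidosis, against 14.4% of all genes. Among those called, PTPRC averaged 0.158 CPM in control and 0.714 in acidosis, and LYZ 0.444 and 1.81. With DESeq2 3 were called. The median log2 fold change of the 6 was 1.34, and 0.76 with libraries scaled by total count. The summed CPM of the 14 was 176 to 192 in control, 206 to 212 with SRPIN340 and 349 to 356 in acidosis; its part in the results was not tested.

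CIP/KIP proteins bind cyclin and CDK together and inhibit mainly CDK2 complexes, and the same proteins can help cyclin D assemble with CDK4 or CDK6. INK4 proteins bind CDK4 and CDK6 alone and keep cyclin D away. Both routes keep the retinoblastoma protein unphosphorylated, which holds E2F transcription factors inactive and the cell in G1. CDKN2A and CDKN2B are known for their rise in senescent cells.

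Start sites are shown for 4 genes because they include the genes with the highest levels, the neighbours CDKN2A and CDKN2B, and the only member that fell. The stretches are the 120 bases before a RefSeq start site on GRCh38.p14, 5′ to 3′ on the gene's strand. Capitals mark the GC box GGGCGG, the core of the sites bound by SP1 and related factors, searched on both strands.
CDKN1A, chr6:36678594-36678713, plus strand: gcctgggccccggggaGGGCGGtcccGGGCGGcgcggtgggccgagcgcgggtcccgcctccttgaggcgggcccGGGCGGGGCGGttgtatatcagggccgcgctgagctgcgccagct
CDKN2A upstream start (p14ARF), chr9:21995325-21995444, minus strand: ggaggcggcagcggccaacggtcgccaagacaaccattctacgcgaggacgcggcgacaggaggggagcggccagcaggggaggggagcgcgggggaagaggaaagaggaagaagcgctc
CDKN2A downstream start (p16INK4a), chr9:21974858-21974977, minus strand: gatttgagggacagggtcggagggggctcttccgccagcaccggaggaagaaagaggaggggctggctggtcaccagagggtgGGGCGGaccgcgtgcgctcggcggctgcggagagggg
CDKN2B, chr9:22009306-22009425, minus strand: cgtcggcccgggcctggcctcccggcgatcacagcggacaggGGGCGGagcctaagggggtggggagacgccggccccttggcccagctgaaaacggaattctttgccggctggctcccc
CDKN2C, the most GC-rich of its start sites, chr1:50968586-50968705, plus strand: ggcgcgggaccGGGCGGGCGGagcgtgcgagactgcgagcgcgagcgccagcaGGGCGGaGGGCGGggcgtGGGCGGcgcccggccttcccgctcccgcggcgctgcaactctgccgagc

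CDKN1A has 4 GC boxes in its stretch, CDKN2C has 5, CDKN2B has 1 and CDKN2A has 1 at its downstream start and 0 at its upstream start. Windows of 250 bases before to 50 bases after a start site were given by RefSeq for 6 of the 7 members, 9 windows in all. Of these, 7 held a GC box, against 45% of 35116 RefSeq windows. GC content was 74.3% at CDKN1A, 62.3% at CDKN1B, 67.3% at CDKN2B and 68% at CDKN2D. CDKN2A had 69% at its downstream start and 63.3% at its upstream start. CDKN2C had 71.3% at the start shown and 46.3% and 49.3% at its other start sites. The median of all windows was 58.7%. The other letters searched were TATAAA on the gene's strand and TTTGGCGC (E2F), TGANTCA (AP-1) and TGACGTCA (CRE) on both strands. They were in 0 of the 9 windows and in 7.33%, 0.652%, 7.71% and 1.85% of all windows. The other CDKN2C windows, at start sites 50960745 and 50970245, held 0 and 1 GC boxes. Which CDKN2C start site gave the mRNA was not measured. A link between these motifs and the changes in acidosis was not tested.

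Levels were compared between members as CPM (counts scaled to the TMM-normalized library total) per kilobase of the canonical transcript. CDKN2A was the highest in all 3 conditions, at 144 ± 2.88 CPM per kb (SD, n = 2) in control. It was followed there by CDKN2C at 65.8, CDKN1A at 47.2, CDKN1B at 28.02, CDKN2B at 11.5, CDKN2D at 3.17 and CDKN1C at 1.42 CPM per kb. The order of levels was the same with SRPIN340. In acidosis CDKN1A, at 184 ± 11.8 CPM per kb (SD, n = 3), took the second place from CDKN2C at 53.9 ± 1.79 CPM per kb (SD, n = 3). Neighbours lay close in acidosis, with CDKN2C from 52.2 to 55.7 and CDKN1B from 49.5 to 51.1 CPM per kb, and CDKN2D from 6.44 to 7.38 and CDKN1C from 5.23 to 5.90 CPM per kb. No neighbours in the order overlapped between samples of a group, but the order depends on the transcripts used. With the longest coding transcript of CDKN2C, of 2904 nucleotides in place of 995, its level in control was 22.6 CPM per kb, below CDKN1A.

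Relative to control, acidosis came with more mRNA of 6 of the 7 CDK inhibitor genes and less of CDKN2C. Log2 fold changes (log2FC) with their standard errors (SE) came from the quasi-likelihood fit of edgeR, with p-values adjusted over 14863 genes. A call needed a log2FC beyond 1 or -1 and an adjusted p under 0.05. In acidosis 5 members were called higher, against 14.4% of all genes tested, and 0 lower, against 19.1%. By the p-value limit alone, 6 members passed as higher and 1 as lower, against 32.5% and 34.2% of all genes. The acidosis and control samples of all 7 members did not overlap, which held for 76.5% of all genes. The median log2FC of the members was 1.19, and that of all genes -0.052. Fewer cells in a state and less RNA per cell cannot be told apart in RNA from whole cultures.

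**Figure D1:**
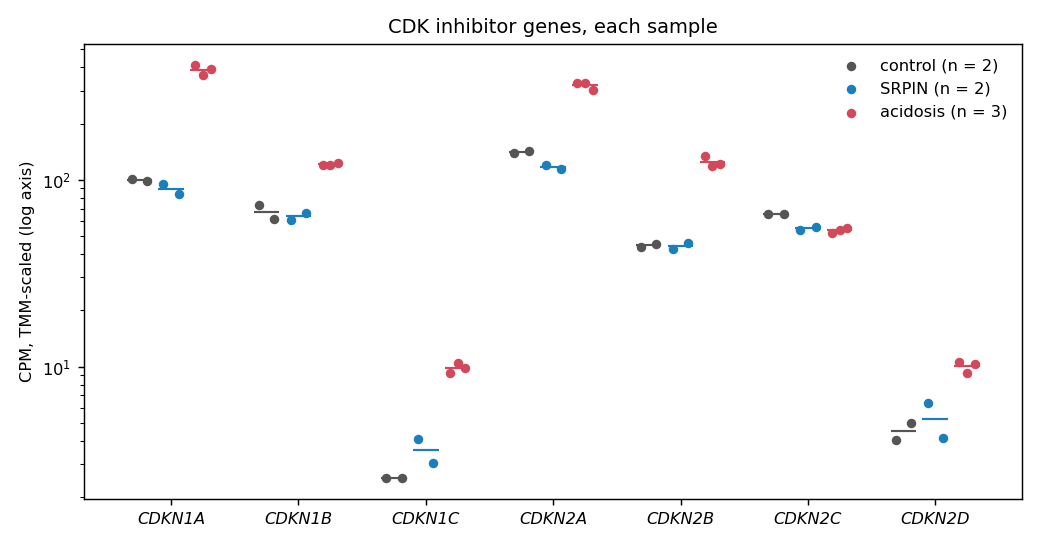
CPM (TMM-scaled, log axis) of each CDK inhibitor gene in every sample; points are samples and lines are group means for control (n = 2), SRPIN340 (n = 2) and acidosis (n = 3). The acidosis points lie above control for 6 genes and below control for CDKN2C.

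CDKN1A (ENSG00000124762.14, chromosome 6 of GRCh38, 36676460 to 36687337) encodes p21, which inhibits CDK2 complexes and also binds PCNA. It was at 101.1 and 98.5 CPM in control, 95.1 and 83.8 CPM with SRPIN340, and 413, 363 and 391 CPM in acidosis. The acidosis samples were all above the others, and both SRPIN340 samples lay slightly under control. In acidosis CDKN1A rose 3.90-fold (log2FC 1.96, SE 0.0854, edgeR adjusted p = 7.01e-08). Of the genes tested, 3.84% had a higher log2FC. With SRPIN340 its log2FC was -0.16 (SE 0.0882, edgeR adjusted p = 0.403).

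CDKN1B (ENSG00000111276.12, chromosome 12, 12685498 to 12722369) encodes p27, an inhibitor of cyclin E and CDK2 that is largely controlled by protein degradation. Its values were 73.2 and 61.9 CPM in control, 60.8 and 66.4 CPM with SRPIN340, and 120.4, 119 and 123 CPM in acidosis. Control and SRPIN340 overlapped, and acidosis was above both. The log2FC in acidosis was 0.84 (SE 0.0930, edgeR adjusted p = 2.83e-05), a rise under the fold limit of a call. The gene overlaps GPR19 on the opposite strand, and the strand setting of the quantification is not given in the sources used here, so reads of the pair may not be fully separated. The same limit holds for CDKN1A, CDKN2A, CDKN2B and CDKN2C, each of which overlaps a long noncoding gene on the opposite strand.

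CDKN1C (ENSG00000129757.15, chromosome 11, 2883213 to 2885775) encodes p57 and is an imprinted gene expressed mainly from the maternal allele. It was low, at 2.52 and 2.53 CPM in control, 4.09 and 3.04 CPM with SRPIN340, and 9.26, 10.5 and 9.80 CPM in acidosis. These levels rest on 69.7 to 156 estimated counts per sample. CDKN1C rose 3.89-fold in acidosis (log2FC 1.96, SE 0.225, edgeR adjusted p = 3.69e-05), and its SE exceeds that of CDKN1A, which has far more counts. Both SRPIN340 samples were above control, but the log2FC of 0.50 did not pass (SE 0.238, edgeR adjusted p = 0.317).

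CDKN2A (ENSG00000147889.18, chromosome 9, 21967752 to 21995301) encodes p16INK4a, which binds CDK4 and CDK6, and from another first exon p14ARF, which binds the ubiquitin ligase MDM2. The gene-level counts sum both products, so which of the start sites shown above gave the mRNA was not measured. CDKN2A was at 139 and 143 CPM in control, 119.9 and 114 CPM with SRPIN340, and 329, 329 and 304 CPM in acidosis. The 3 groups did not overlap, with SRPIN340 lowest and acidosis highest. CDKN2A rose 2.28-fold in acidosis (log2FC 1.19, SE 0.0692, edgeR adjusted p = 3.78e-07). With SRPIN340 the log2FC was -0.27 (SE 0.0734, edgeR adjusted p = 0.0984), and DESeq2 passed it (adjusted p = 0.0167).

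CDKN2B (ENSG00000147883.12, chromosome 9, 22002903 to 22009305) encodes p15, an inhibitor of CDK4 and CDK6 known as a target of TGF-beta signaling, and lies 7601 bases from CDKN2A on the same strand. Its values were 43.8 and 45.2 CPM in control, 42.7 and 46.0 CPM with SRPIN340, and 134, 119 and 122 CPM in acidosis. The SRPIN340 samples fell on either side of control, while acidosis was far above. CDKN2B rose 2.81-fold in acidosis (log2FC 1.49, SE 0.0896, edgeR adjusted p = 4.82e-07). The log2FC with SRPIN340 was -0.0037 (SE 0.0946, edgeR adjusted p = 0.992).

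CDKN2C (ENSG00000123080.12, chromosome 1, 50960745 to 50974634) encodes p18, another inhibitor of CDK4 and CDK6. It was at 65.6 and 65.4 CPM in control, 54.1 and 55.7 CPM with SRPIN340, and 51.9, 53.6 and 55.5 CPM in acidosis. Acidosis and SRPIN340 overlapped, and both were below control. CDKN2C fell by 0.29 on the log2 scale in acidosis (SE 0.0814, edgeR adjusted p = 0.0105), a change too small for a call. With SRPIN340 its log2FC was -0.25 (SE 0.0882, edgeR adjusted p = 0.173).

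CDKN2D (ENSG00000129355.7, chromosome 19, 10566460 to 10569059) encodes p19, the remaining INK4 inhibitor of CDK4 and CDK6. It was low, at 4.04 and 4.99 CPM in control, 6.34 and 4.14 CPM with SRPIN340, and 10.5, 9.18 and 10.3 CPM in acidosis. Control and SRPIN340 overlapped, and acidosis was above both. CDKN2D rose 2.22-fold in acidosis (log2FC 1.15, SE 0.231, edgeR adjusted p = 0.00153). Its SRPIN340 samples differed from each other by more than their mean differed from control (log2FC 0.22, SE 0.246, edgeR adjusted p = 0.717).

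**Figure D2:**
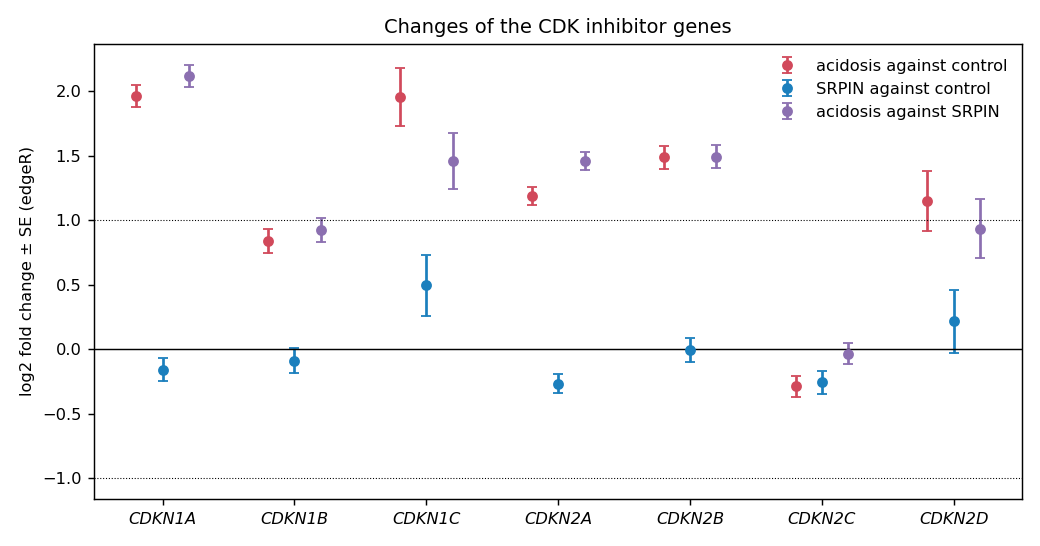
Log2FC (edgeR, bars are the standard error) of each CDK inhibitor gene in the 3 comparisons; dotted lines mark 1 and -1. In acidosis against control the points run from -0.29 for CDKN2C to 1.96 for CDKN1A, and with SRPIN340 they run from -0.27 for CDKN2A to 0.50 for CDKN1C.

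With SRPIN340, 0 of the 7 members were called in either direction by edgeR, against 0.128% of all genes called higher and 0.195% called lower. At adjusted p under 0.05 alone 0 passed as well, against 0.767% and 1.53%. At an unadjusted edgeR p under 0.05 there were 2 members, CDKN2A and CDKN2C, against 2621 of all 14863 genes tested. DESeq2 passed 1 member, CDKN2A, and the share of all genes that it passed is not given here. For 4 members the SRPIN340 and control samples did not overlap, against 54.1% of all genes.

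Compared directly, acidosis was above SRPIN340 for 6 members, all but CDKN2C. Here 4 members were called higher, against 14.9% of genes, and 0 lower, against 19.7%. At adjusted p under 0.05, 6 passed as higher and 0 as lower, against 32.8% and 35%, and the groups of 6 members did not overlap, against 78.3%. CDKN1A had a log2FC of 2.12 (SE 0.0862, edgeR adjusted p = 4.69e-08) and CDKN2A one of 1.46 (SE 0.0701, edgeR adjusted p = 1.28e-07). CDKN2C was the exception, with a log2FC of -0.034 (SE 0.0821, edgeR adjusted p = 0.732). CDKN2D and CDKN1B were at 0.93 and 0.93 on the log2 scale, both under the fold limit. With total-count scaling CDKN1A alone (log2FC 1.51) stayed past the fold limit, and CDKN1C, CDKN2A and CDKN2B were at 0.85, 0.84 and 0.88. Among 14863 genes, 775 were then called higher and 5505 lower. Under that scaling CDKN2D did not pass (log2FC 0.32) and CDKN2C passed as lower (log2FC -0.65). CDKN2D did not pass without SRPIN340 replicate 2 either (log2FC 0.65). The comparisons with control and with SRPIN340 share the acidosis samples.

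All fold changes above are relative to TMM scaling, whose mean factor was 0.79 in acidosis and 1.18 in control. When only the library totals were used for scaling, the median over all genes in acidosis was -0.63 on the log2 scale. The 6 members that rose still passed as higher and CDKN2C as lower, but only CDKN1A and CDKN1C (log2FCs 1.39 and 1.39) were then called. Among 14863 genes, 815 were then called higher and 5202 lower. CDKN2A, CDKN2B and CDKN2D were at 0.62, 0.91 and 0.57, CDKN1B at 0.27 and CDKN2C at -0.86 on the log2 scale. A change of scaling shifts all genes alike, so it moves the distance of the members from zero and not their order.

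**Figure D3:**
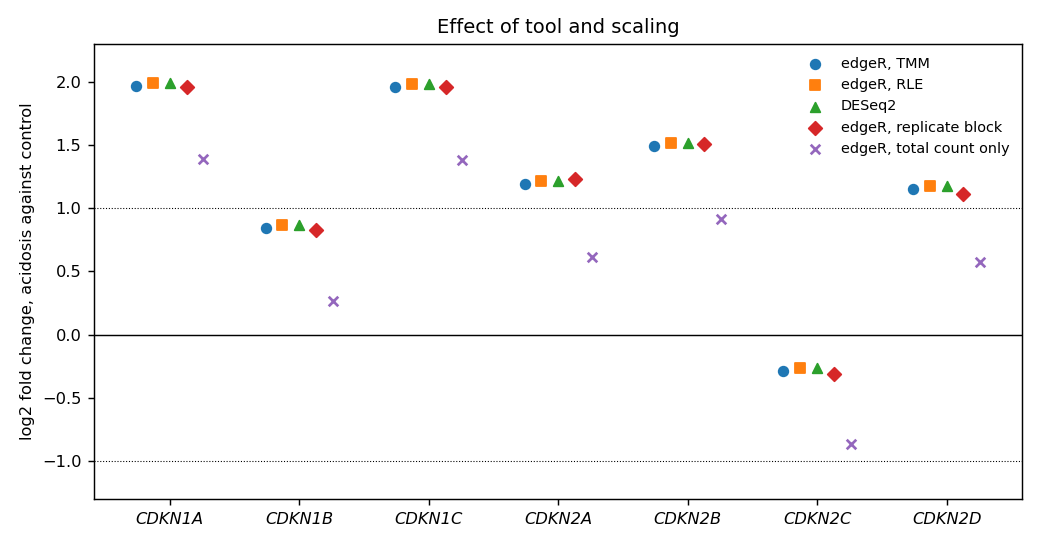
Log2FC of each CDK inhibitor gene in acidosis against control under 5 settings of tool and scaling; dotted lines mark 1 and -1. Settings other than total-count scaling nearly coincide for each gene, and total-count scaling is lower, for example 1.39 in place of 1.96 for CDKN1A.

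Ratios between members of the same library do not depend on that scaling. The log2 ratio of CDKN1A to CDKN1B per kilobase was 0.65 and 0.86 in control, 0.83 and 0.52 with SRPIN340, and 1.97, 1.79 and 1.85 in acidosis. The mean was 1.12 higher in acidosis than in control, with no overlap (exact two-sided permutation test, p = 0.1, the smallest that 2 against 3 samples can give, and 0.167 after Benjamini-Hochberg adjustment over the 15 comparisons of ratios). CDKN1A and CDKN1C, by contrast, kept nearly the same ratio, 5.04 ± 0.0318 (SD, n = 2) in control and 5.05 ± 0.183 (SD, n = 3) in acidosis on the log2 scale, and 4.40 ± 0.178 (SD, n = 2) with SRPIN340. The log2 ratio of CDKN2C to CDKN2D was 4.54 and 4.23 in control, 3.61 and 4.26 with SRPIN340, and 2.82, 3.05 and 2.94 in acidosis. It was 1.45 lower in acidosis than in control (exact permutation test, p = 0.1). With SRPIN340 against control the smallest p that the design allows is 0.33, so none of the 5 ratios computed could pass.

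The make-up of the family changed accordingly. CDKN1A took up 15.7% ± 0.248 (SD, n = 2) of the summed CPM per kb of the 7 genes in control, 16.2% ± 1.04 (SD, n = 2) with SRPIN340 and 27.8% ± 1.38 (SD, n = 3) in acidosis. CDKN2C went from 21.9% ± 0.0184 (SD, n = 2) in control to 8.17% ± 0.486 (SD, n = 3) in acidosis. CDKN2A had the largest share, 47.8% ± 1.06 (SD, n = 2) in control and 49.6% ± 1.67 (SD, n = 3), a difference about the size of the spread. The CIP/KIP genes together held 26.4% and 24.5% in control, 27.3% and 26.9% with SRPIN340, and 36.7%, 34.7% and 37.3% in acidosis. No acidosis sample overlapped with the others in these shares of CDKN1A, CDKN2C and CIP/KIP. With the longest coding transcripts, an alternative chosen after seeing the data, CDKN2C held 9.74% in control and 3.26% in acidosis, and CDKN1A 19% and 30.3%. CDKN2A then went the other way, from 57.6% to 53.7%. In acidosis CDKN2B (5.71%) then stood above CDKN1B (4.92%) and CDKN2C.

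**Figure D4:**
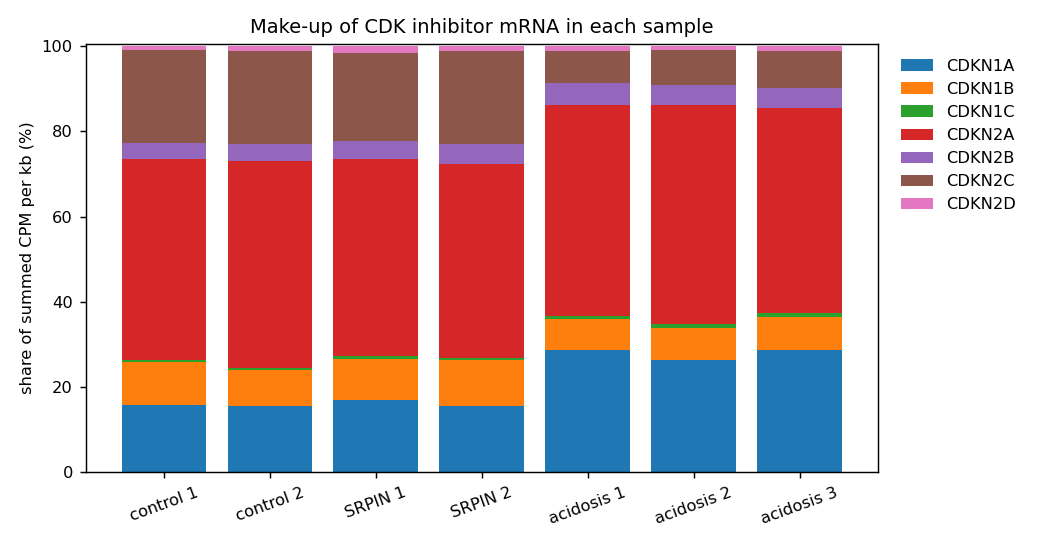
Share of each CDK inhibitor gene in the summed CPM per kb of the 7 genes, 1 bar per sample. CDKN1A grows from 15.5% to 17.0% in the 4 samples of pH 7.4 to between 26.2% and 28.7% in acidosis, while CDKN2C shrinks.

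The targets of the inhibitors moved in different directions. Of 11 G1 cyclin and CDK genes, 6 passed as lower in acidosis and 3 as higher, and with total-count scaling 8 and 2. Their median log2FC was -0.50. Among all genes tested, 34.2% passed as lower and 32.5% as higher with TMM scaling. With total-count scaling the median log2FC was -1.07 for the 11 genes and -0.63 for all genes. CCND2, a D-type cyclin, averaged 113 ± 6.66 CPM (SD, n = 2) in control and rose to 481 ± 14 (SD, n = 3), with a log2FC of 2.09 (edgeR adjusted p = 1.63e-08). CDK2, the main CIP/KIP target, rose by 1.24 on the log2 scale (edgeR adjusted p = 4.47e-06). CDK4 and CDK6, the INK4 targets, fell by 0.77 and 0.68 on the log2 scale (edgeR adjusted p = 0.000163 and 0.00147).
The cyclins of CDK2 fell as well, CCNE1 by 0.50, CCNE2 by 1.25, CCNA1 by 1.54 and CCNA2 by 0.89 on the log2 scale, all with an edgeR adjusted p under 0.05. CCND1 rose by 0.73 on the log2 scale and did not pass with total-count scaling (log2FC 0.15, edgeR adjusted p = 0.215). CCND3 averaged 26.7 ± 2.13 (SD, n = 2) and 27.5 ± 1.39 (SD, n = 3) CPM in control and acidosis (edgeR adjusted p = 0.734).

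Of all genes tested, 32.5% passed as higher in acidosis and 34.2% as lower with TMM scaling, and 14.4% and 19.1% were called. With total-count scaling 815 of 14863 genes were called higher and 5202 lower, and the median log2FC of all genes was -0.63. Downstream, 6 of 13 pocket protein and E2F genes passed as higher in acidosis and 3 as lower, and with total-count scaling 4 and 5. The 3 lower genes were RB1, RBL1 and RBL2, the pocket proteins that CDKs phosphorylate, with log2FCs of -0.53, -1.07 and -1.06 (edgeR adjusted p = 0.00216, 4.62e-05 and 8.9e-06). E2F7, a repressor E2F, and E2F2, an activator, rose by 1.73 and 1.41 on the log2 scale. Among 7 mitotic genes, WEE1 and PKMYT1, kinases that inhibit CDK1, rose by 1.92 and 1.34 on the log2 scale and were the only calls with TMM scaling. With total-count scaling 1 gene of the list was called higher, WEE1 at 1.35, and 2 were called lower, CCNB1 at -1.25 and CCNB2 at -1.12. Of the 7, 3 passed as higher and 2 as lower, and with total-count scaling 2 and 5. CCNB1 and CCNB2 fell by 0.67 and 0.54. Of the 3 CDK-activating kinase genes, MNAT1 was called lower (log2FC -1.10), and without acidosis replicate 2 the count of calls was 0.

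Of 14 proliferation markers, 8 passed as lower and 3 as higher, with a median log2FC of -0.29, against 34.2% and 32.5% of all genes. With total-count scaling 11 passed as lower and 2 as higher, and the median was -0.86. The median of all genes also fell with that scaling, to -0.63. AURKA and BUB1, mitotic kinases, fell by 2.16 and 1.71 on the log2 scale, whereas RRM2, a subunit of ribonucleotide reductase, rose by 1.27. MKI67, which encodes the Ki-67 proliferation antigen, averaged 1030 ± 129.9 (SD, n = 2), 775 ± 2.89 (SD, n = 2) and 459 ± 49.6 (SD, n = 3) CPM in control, SRPIN340 and acidosis.

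**Figure D5:**
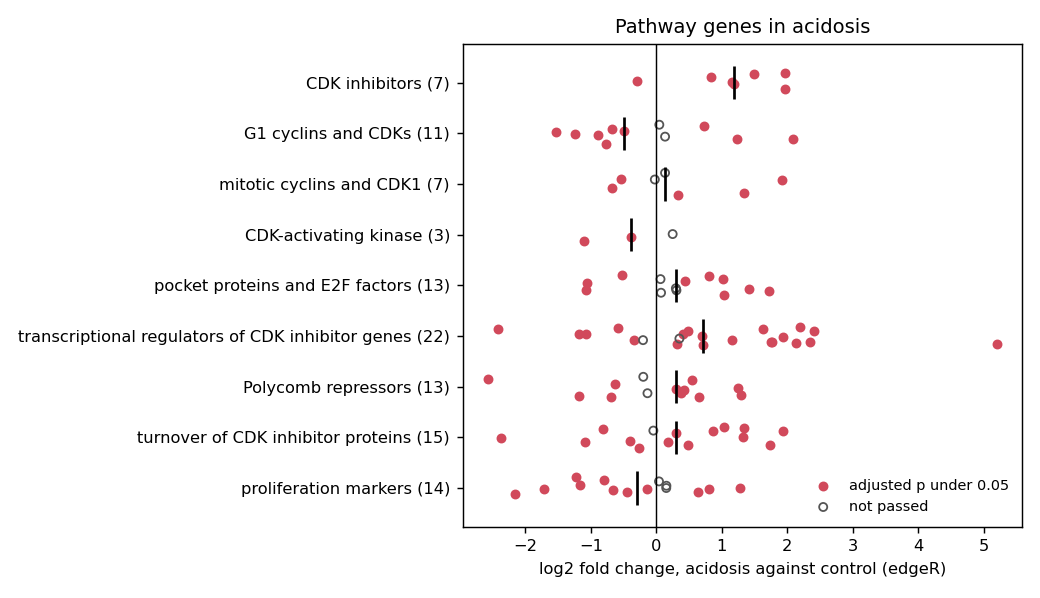
Log2FC (edgeR, acidosis against control) of the genes tested in each list, with the number of genes in brackets; filled points had an adjusted p under 0.05, open points did not, and vertical bars are list medians. The median of the CDK inhibitors is 1.19, and with total-count scaling it was 0.62, against -0.63 for all genes.

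Regulators known to act on these genes were read from 3 further lists. Of 22 transcriptional regulators, 15 passed as higher in acidosis and 5 as lower, with 10 and 3 called, and with total-count scaling 10 and 7 passed. Among all genes tested, 32.5% passed as higher and 34.2% as lower with TMM scaling, and 14.4% and 19.1% were called. The median log2FC of all genes was -0.63 with total-count scaling. MDM2, the ligase bound by p14ARF, averaged 240.2 ± 42.6 (SD, n = 2) and 209 ± 45.7 (SD, n = 3) CPM in control and acidosis (edgeR adjusted p = 0.292).
KLF6, a zinc finger factor described as an activator of CDKN1A, averaged 49.9 ± 2.25 (SD, n = 2) in control and 1842 ± 84.8 (SD, n = 3) CPM in acidosis, with a log2FC of 5.21 (edgeR adjusted p = 2.86e-10). MYC and its partner ZBTB17 (MIZ1), a pair that represses CDKN1A and CDKN2B, rose by 1.93 and 2.42 on the log2 scale (edgeR adjusted p = 4.93e-07 and 6.63e-07).

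Polycomb proteins are the known repressors of the CDKN2A locus. Of 13 Polycomb genes, 7 passed as higher in acidosis and 4 as lower, and with total-count scaling 2 and 7. The shares of all genes with TMM scaling were 32.5% and 34.2%, and their median log2FC with total-count scaling was -0.63. CBX6 and BMI1 rose by 1.29 and 1.24 on the log2 scale, and CBX7 fell by 2.57, its means being 3.94 ± 0.531 (SD, n = 2) and 0.615 ± 0.456 (SD, n = 3) CPM. EZH2 averaged 86.5 ± 3.27 (SD, n = 2) and 78.7 ± 9.71 (SD, n = 3) CPM (edgeR adjusted p = 0.282).
Of 15 genes for the turnover of CDK inhibitor proteins, 9 passed as higher and 5 as lower, and with total-count scaling 6 and 8. Here too 32.5% and 34.2% of all genes passed with TMM scaling, and their median log2FC with total-count scaling was -0.63. CKS1B and CKS2, which encode the cofactor of SKP2 and its paralog, rose by 1.93 and 1.73 on the log2 scale, and UBAC1, a subunit of a ligase for p27, fell by 2.38. SKP2 itself, the receptor of the main p27 ligase, averaged 105 ± 7.02 (SD, n = 2) and 102 ± 13.8 (SD, n = 3) CPM (edgeR adjusted p = 0.734). The log2 ratio of CDKN1B to SKP2 was 0.90 higher in acidosis than in control (exact permutation test, p = 0.1, the smallest that the design allows).
With SRPIN340, 5 of the 14 proliferation genes passed, all lower, against 1.53% of all genes passed as lower. They were MCM2, MCM5, TYMS, RRM2 and PLK1, with log2FCs from -0.50 to -0.31. The edgeR adjusted p ran from 0.0227 for TYMS to 0.0467 for MCM2 and 0.0497 for RRM2, close to the limit of 0.05. In acidosis MCM2, MCM5 and RRM2 passed as higher (log2FCs 0.64, 0.81 and 1.27) and TYMS and PLK1 as lower (log2FCs -0.80 and -1.225). MCM2 did not pass there with total-count scaling (log2FC 0.068).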

How the data were processed

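The authors trimmed paired-end reads of poly(A) RNA with Trimmomatic 0.39 and Trim Galore 0.6.6 and ran Salmon 1.5.1 on the Gencode transcripts of GRCh38.p13, from which tximport gave gene sums. What the authors deposited are estimated counts, 1 column per biological repeat, not normalized between samples. The tximport option and the strand setting are not given in the sources used here. The 7 columns were rounded and fitted together with edgeR 4.0.16 (R 4.3.3; TMM, filterByExpr, quasi-likelihood, Benjamini-Hochberg over 14863 genes), after a trial on simulated data. SEs were taken from the test statistic. Of 19978 identifiers, 19977 matched GENCODE release 44, whose canonical transcript lengths gave CPM per kb, an approximation where other transcripts are expressed. Ratios used a pseudocount of 0.5. Replicates differed by 6.97 to 12.4 times the sampling noise (chi-square per degree of freedom).

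The members and gene lists were chosen with earlier results of these data known. Named genes were all members, up to 3 called genes with the largest change per list, 16 core pathway genes and the 3 nearest profiles per member. PAX2, PTPRC, EPCAM, COL1A1, LUM, LYZ, RBL2, CCNB1, CCNB2, MKI67, MCM2, MCM5, TYMS and PLK1 were chosen after their values were seen. Sequences are from RefSeq (GRCh38.p14). DESeq2 1.42.0, other scalings, filters and fits, a replicate block and each replicate left out were alternatives. Figures were drawn with matplotlib 3.10.9. Some genes of the lists are counted in the list totals but not reported here by name.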

Additional observations from a re-analysis of the deposited data

How the results depend on the processing

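In acidosis against control, the members kept their direction and an adjusted p under 0.05 under the alternatives that tested them; the filter at 10 CPM left out CDKN1C and CDKN2D, so 5 members were tested and 3 called there. The count of genes called was 4985 in acidosis against control, 48 with SRPIN340 and 5148 in acidosis against SRPIN340. It was 3122 and 3190 in the acidosis comparisons with genes of at least 10 CPM, where fewer genes are tested, and 9917, 342 and 10084 without the fold limit. With SRPIN340 it lay between 11 and 66 with 1 replicate left out. A lone sample was then assumed to vary like the other groups. Scaling by total count moved the calls of acidosis against control from 2145 higher and 2840 lower to 815 and 5202, and of acidosis against SRPIN340 from 2213 and 2935 to 775 and 5505; the cause was not tested. The median list change turned negative with that scaling for mitotic, E2F, Polycomb and turnover genes (to -0.44, -0.27, -0.28 and -0.27), and CDK inhibitors had 2 calls in place of 5.

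Against control, SRPIN340 changes near 0 changed sign: CDKN1B (log2 fold change -0.21 to 0.040 with 1 replicate left out), CDKN2D (-0.12 to 0.49) and CDKN2B (-0.058 to 0.050, and 0.036 with total-count scaling and 0.0078 with genes of at least 10 CPM). CDKN2A passed with DESeq2 (-0.27). In acidosis against SRPIN340, CDKN2C passed with total-count scaling (-0.65) and CDKN2D did not (0.32), nor without SRPIN340 replicate 2 (0.65; range 0.65 to 1.27). Per longest coding transcript, the levels of CDKN1A, CDKN1B, CDKN1C, CDKN2A and CDKN2C in control were 44.03, 15.6, 1.30, 133.5 and 22.6 CPM per kb; the length alone changes these.

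The replicate numbers do not pair the samples: deviations of same-numbered samples correlated between -0.15 and 0.072. With a replicate block, 27 genes were called with SRPIN340 and 4858 in acidosis, and no call of a member changed. The depth of 13615816 counts limits the low genes CDKN1C and CDKN2D most.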

Other observations

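Across the 7 samples, the mean-centred log2 CPM of CDKN2A and CDKN2B had the smallest root mean square difference of the 21 pairs of members, 0.14, and CDKN1A and CDKN2C had the largest, 1.09. Among 10114 other genes of at least 10 CPM on average, the profiles nearest to CDKN1A were those of DLX2, IRF2BPL and AEN, at 0.062 to 0.070. AEN encodes a nuclease active in apoptosis. The nearest to CDKN1B were ZNF550, HBP1 and C4orf3 (0.041 to 0.050), to CDKN1C SNRPD3, ZNF57 and IDS (0.063 to 0.098), and to CDKN2A CCDC124, ZNF207 and RNPS1 (0.029 to 0.044). For CDKN2B they were IST1, RPL38 and VAPA (0.065 to 0.066), for CDKN2C YWHAQ, HNRNPK and PARP1 (0.033 to 0.043), and for CDKN2D COL1A1, MAN2B1 and KLF16 (0.090 to 0.10). These are descriptions over 7 samples, in which any gene with a like change in acidosis scores close.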
